A study of Mus musculus with 6 samples.

Results

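Glycolysis and glycogen metabolism were examined as 31 genes chosen by symbol from the 34945 symbols of the count table, and all 31 were found and tested. They cover glucose uptake (1 gene), hexose phosphorylation and isomerisation (3), phosphofructokinase and its bifunctional regulators (6), the enzymes from aldolase to pyruvate kinase (9), lactate production and export (3), glycogen synthesis (5) and glycogen breakdown (4). They were chosen by name and role, with no threshold on a measured value, but with earlier results of these data known. RNA from left ventricular myocardium was sequenced in 3 wild-type mice and 3 4SA-Rad knock-in mice, with C57BL/6N given as the strain of all 6. Rad, the product of Rrad, is a small GTP-binding protein that restrains cardiac calcium channels, and in the 4SA allele serines of Rad that are targets of phosphorylation are replaced by alanine. The sources used here do not give age, sex or handling, and a knock-in allele is carried by every cell type of the tissue, not by heart muscle alone.

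Heart muscle takes its energy mainly from fatty acids and oxidises glucose and lactate beside them. In glycolysis, glucose is phosphorylated, split into triose phosphates and turned into pyruvate, which enters mitochondria or is reduced to lactate. Glycogen is the stored form of glucose, and adrenergic stimulation of the heart is known to promote its breakdown through phosphorylase kinase and glycogen phosphorylase.

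Libraries held from 24761124 to 39627397 estimated counts, every knock-in library being deeper than every wild-type one. Mitochondrially encoded RNA made up 53.1% to 56.9% of each library. Rrad was at 44.7, 30.0 and 32.2 normalised counts-per-million (CPM) in the wild-type mice and at 27.0, 56.8 and 42.3 CPM in the knock-in mice, which does not check the genotype labels, because an exchange of codons is not seen in read counts. Nnt, a nuclear gene for a mitochondrial enzyme, known to be partly deleted in the C57BL/6J substrain, was 2.50-fold higher in knock-in (272 ± 9.999 and 680 ± 73.8 CPM, mean ± SD, n = 3 each; edgeR adjusted p = 2.02e-05). A substrain difference that follows the genotype and the Rad allele cannot be told apart in any result given here. Beside the X-linked members Pfkfb1, Pgk1 and Phka1, 4 Y-linked genes were read, and all were detected in every library. Ddx3y, Uty and Kdm5d did not pass, and Eif2s3y was lower in knock-in (33.9 ± 0.425 and 26.2 ± 3.47 CPM, log2 fold change -0.37 ± 0.09, edgeR adjusted p = 0.0260). Cardiomyocyte markers summed to 46057 to 48323 CPM in wild-type and 47204 to 47926 CPM in knock-in. Of these 10 markers, 8 had ranges that did not overlap between genotypes, against 29.4% of all genes tested. Knock-in was above for Myh6, Tnnt2, Tnni3, Myl2 and Pln, and below for Actc1, Mb and Ckm. The skeletal muscle markers stayed at or below 1.48 CPM in sum, with Myf5 at 0 counts in every library.

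Of the 31 genes, 8 fell and 2 rose in knock-in ventricles, and 21 did not pass the test (edgeR quasi-likelihood test, Benjamini-Hochberg adjusted p below 0.05 over 13485 genes). Over all genes tested, 9.01% passed, 4.00% as higher (540 genes) and 5.01% as lower (675 genes), against 32.3% of the members passing. Because the members were chosen with earlier results of these data known, the shares given here cannot test whether the pathway stands out. Scaled by library size alone, 227 genes were higher and 1177 lower. The genes that fell were Ugp2 and Ppp1r3c of glycogen synthesis, the regulator Pfkfb2, and 5 enzymes of the lower part of glycolysis, Aldoa, Gapdh, Pgk1, Pgam2 and Eno3. The genes that rose were Pfkfb1, another bifunctional regulator of the pathway, and Pygb, a glycogen phosphorylase. Log2 fold changes, knock-in over wild-type, were below 0 for 23 members and above 0 for 8, with a median of -0.080, against a median of 0.0036 over all genes tested. For 15 members the groups had separate CPM ranges (48.4%), 13 of them with knock-in below, against 29.4% of all genes tested. In bulk tissue, fewer cells of a type and less RNA per cell cannot be told apart.

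**Figure D1:**
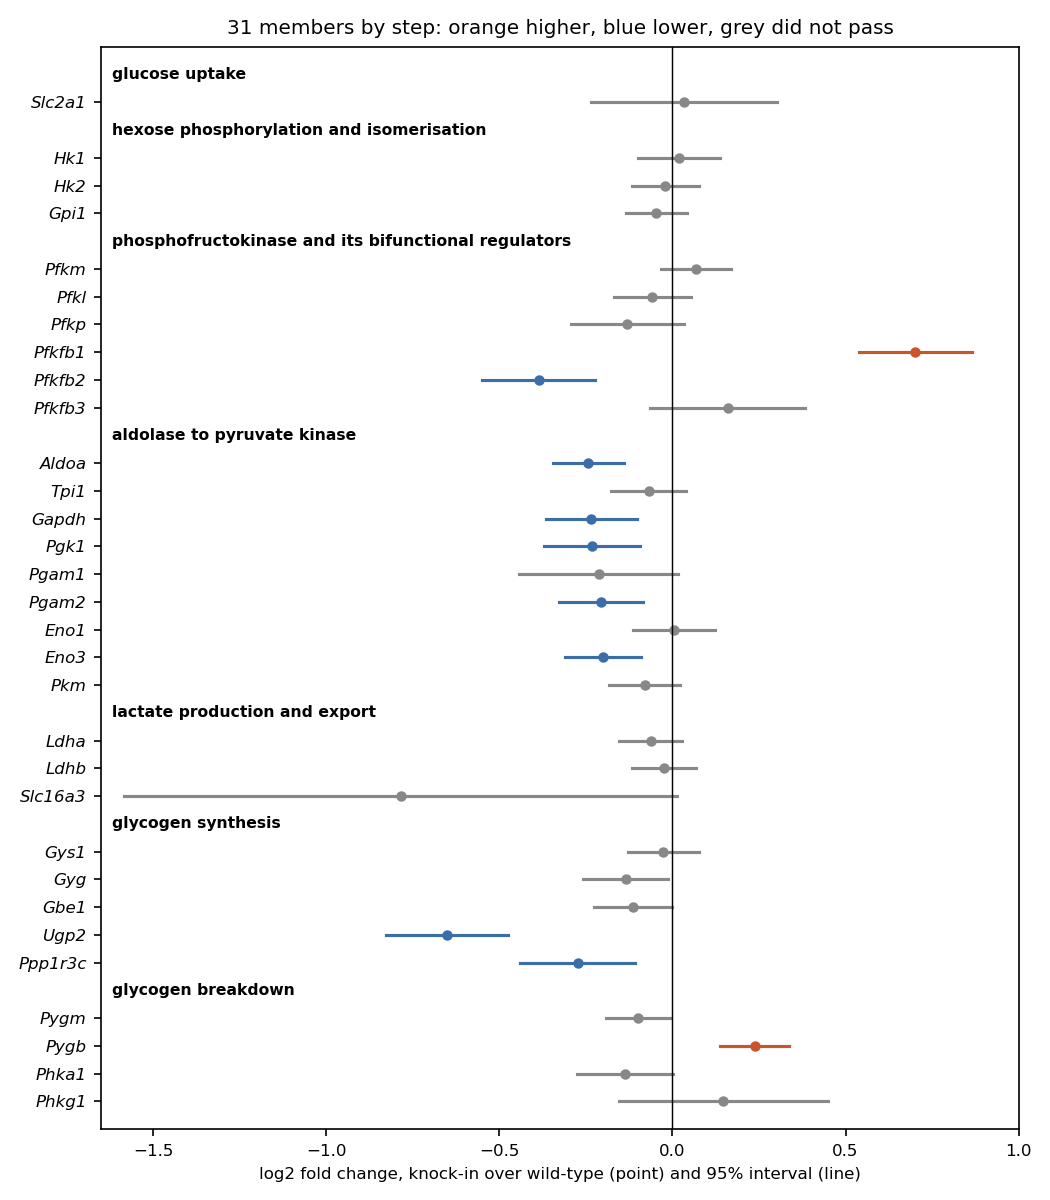
Log2 fold change of each of the 31 genes, knock-in over wild-type (x axis), ordered by step of the pathway (y axis). Points are edgeR estimates and lines their 95% intervals. Orange genes rose (Pfkfb1 and Pygb), blue genes fell (8) and grey genes did not pass. Most of the blue points lie among the enzymes from aldolase to pyruvate kinase, and the widest interval belongs to Slc16a3, the gene with the fewest counts.

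Promoters are shown for Ugp2, the member that fell furthest among those that passed, and for Gapdh, Pgk1 and Pgam2 of the lower enzymes, because these genes moved in the same direction, beside that of Pygb, which rose. Each line gives the 250 bases before a RefSeq start site, 5′ to 3′ on the strand of the gene, from RefSeq on build GRCm38.p6. Capitals mark ACGTG or GCGTG on either strand, the core of the site bound by hypoxia-inducible factors, which are textbook regulators of glycolytic genes. Neighbouring matches can overlap, as in the palindrome CACGTG.
Ugp2, first start (chr11:21371268-21371517, minus strand): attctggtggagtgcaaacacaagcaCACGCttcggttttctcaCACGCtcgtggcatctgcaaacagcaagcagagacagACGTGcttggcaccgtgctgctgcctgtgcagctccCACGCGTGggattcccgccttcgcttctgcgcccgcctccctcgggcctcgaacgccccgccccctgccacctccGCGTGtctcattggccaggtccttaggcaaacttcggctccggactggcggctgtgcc
Ugp2, second start (chr11:21370630-21370879, minus strand): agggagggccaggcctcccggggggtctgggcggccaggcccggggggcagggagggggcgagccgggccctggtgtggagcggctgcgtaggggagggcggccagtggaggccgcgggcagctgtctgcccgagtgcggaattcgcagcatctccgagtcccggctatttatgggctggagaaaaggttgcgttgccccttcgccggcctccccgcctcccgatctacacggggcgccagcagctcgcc
Gapdh (chr6:125165774-125166023, minus strand): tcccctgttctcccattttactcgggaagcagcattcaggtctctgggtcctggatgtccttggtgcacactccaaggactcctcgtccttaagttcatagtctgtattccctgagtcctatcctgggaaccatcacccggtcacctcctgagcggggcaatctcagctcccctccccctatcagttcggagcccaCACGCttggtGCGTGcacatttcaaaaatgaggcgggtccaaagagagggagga
Pgk1 (chrX:106186850-106187099, plus strand): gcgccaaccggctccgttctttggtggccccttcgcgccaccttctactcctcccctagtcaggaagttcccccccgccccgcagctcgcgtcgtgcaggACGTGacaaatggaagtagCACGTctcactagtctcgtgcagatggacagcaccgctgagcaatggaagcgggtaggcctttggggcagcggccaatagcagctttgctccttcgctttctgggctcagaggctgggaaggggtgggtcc
Pgam2 (chr11:5803797-5804046, minus strand): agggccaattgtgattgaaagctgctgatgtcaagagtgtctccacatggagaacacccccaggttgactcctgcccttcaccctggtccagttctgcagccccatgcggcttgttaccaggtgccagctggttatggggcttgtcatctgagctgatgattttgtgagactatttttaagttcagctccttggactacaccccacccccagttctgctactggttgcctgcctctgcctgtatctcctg
Pygb (chr2:150786546-150786795, plus strand): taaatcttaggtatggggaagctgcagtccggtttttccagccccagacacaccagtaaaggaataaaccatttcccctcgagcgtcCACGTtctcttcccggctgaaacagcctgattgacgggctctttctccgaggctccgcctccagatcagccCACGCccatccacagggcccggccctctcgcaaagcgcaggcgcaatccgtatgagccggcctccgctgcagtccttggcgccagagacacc
The first start of Ugp2 had 6 matches and the second none, Gapdh, Pgk1 and Pygb had 2 each, and Pgam2 had none. All 31 members were matched in the RefSeq table, 21 of them with a single start and the others with several (48 windows in all). At least 1 match lay before at least 1 start of 25 members (80.6%), of 41.5% of all 27025 genes in the table and of 60.4% of the 10418 tested genes found there. A gene with several starts has more room for a match. Counted by window, 70.8% of the 48 member windows and 38.6% of the 32851 windows of all genes had a match. The share over the windows of tested genes alone was not computed. Among the members, 7 of the 8 genes that fell, both that rose and 16 of the 21 that did not pass had a match. A match is a string of letters, and binding was not measured.

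Levels differed widely between genes once divided by the length of the longest coding transcript in GENCODE M21. Gapdh, which oxidises glyceraldehyde phosphate, stood first at a wild-type mean of 1507 CPM per kilobase, ahead of Aldoa, muscle aldolase, at 766 and Ldhb, the heart form of lactate dehydrogenase, at 557. Next came Eno3, Pgam2, Pkm and Pfkm at 312, 258, 228 and 181 CPM per kilobase. At the other end were the glucose transporter Slc2a1 at 2.53, Pfkfb3 at 1.69 and the lactate exporter Slc16a3 at 0.160 CPM per kilobase. Of the 10 genes with the highest level per kilobase, 4 fell and none rose, against 5.01% lower and 4.00% higher over all genes tested. Gapdh and Aldoa together made up 38.7% of the summed wild-type CPM of the 31 genes. That sum was 9017, 8247 and 8522 CPM in the wild-type mice and 7931, 7886 and 7823 CPM in the knock-in mice, without overlap.

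**Figure D2:**
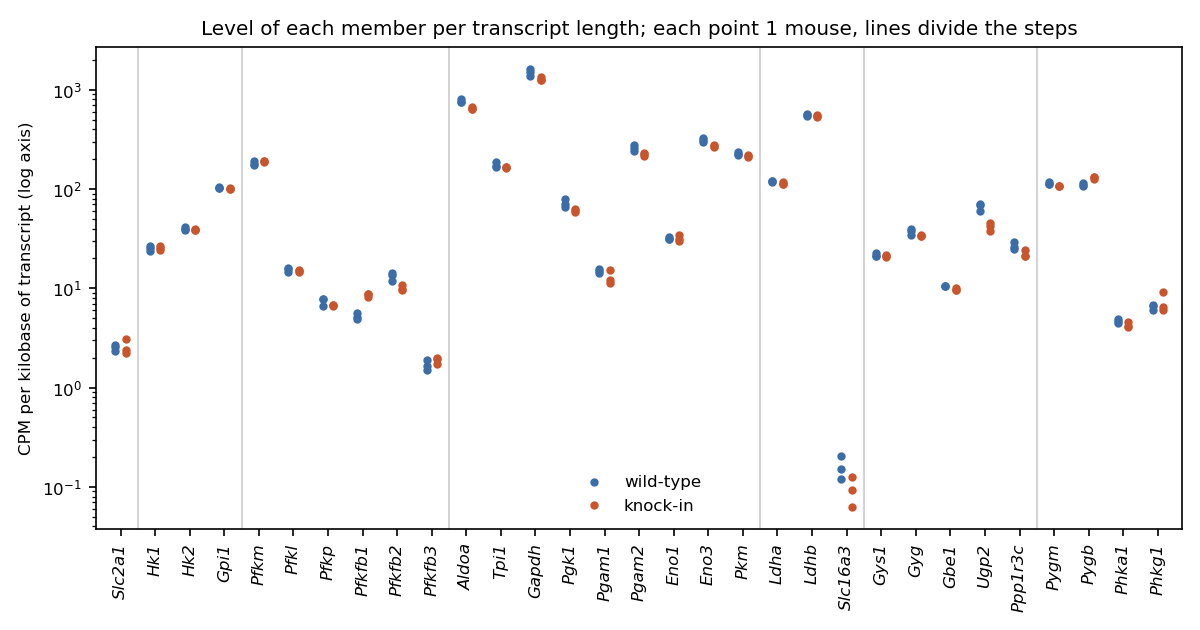
Level of each of the 31 genes in CPM per kilobase of transcript (y axis, log scale), ordered by step with grey lines between steps. Each point is 1 mouse, blue for wild-type and orange for knock-in. Gapdh is highest at a wild-type mean of 1507 and Slc16a3 lowest at 0.160, and differences between genes are far larger than those between genotypes.

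Glucose uptake and the first steps did not pass the test. Slc2a1, the basal glucose transporter, was at 8.42, 8.79 and 7.56 CPM in wild-type mice against 7.33, 7.87 and 10.04 CPM in knock-in. These ranges overlapped, and the 95% interval of the log2 fold change ran from -0.24 to 0.30. Hk2, the insulin-regulated hexokinase of muscle, was at 227, 212 and 217 CPM in wild-type mice against 215, 212 and 219 CPM in knock-in (log2 fold change -0.02 ± 0.04, SE; edgeR adjusted p = 0.813). Hk1, the hexokinase of most tissues, was at 114, 108 and 103 CPM in wild-type mice against 109, 105 and 115 CPM in knock-in (log2 fold change 0.02 ± 0.05; edgeR adjusted p = 0.864). Both hexokinases overlapped between genotypes and had intervals within 0.14 of 0 on the log2 scale. Gpi1, which isomerises glucose phosphate to fructose phosphate, was at 304, 297 and 296 CPM in wild-type mice against 289, 288 and 292 CPM in knock-in. The knock-in values of Gpi1 lay below all wild-type values, but the means differed by -3.15%, and the gene did not pass (edgeR adjusted p = 0.525).

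Phosphofructokinase itself did not pass, whereas 2 of the 4 genes for the enzymes that set its allosteric activator, Pfkfb1 and Pfkfb2, changed in opposite directions. Pfkm, the muscle subunit, was at 547, 514 and 505 CPM in wild-type mice against 534, 552 and 556 CPM in knock-in (log2 fold change 0.07 ± 0.05; edgeR adjusted p = 0.400). The liver subunit Pfkl was at 58.3, 60.2 and 54.9 CPM in wild-type mice against 56.8, 54.0 and 55.8 CPM in knock-in. The platelet subunit Pfkp was at 32.4, 27.2 and 32.7 CPM in wild-type mice against 27.8, 28.3 and 28.2 CPM in knock-in. All 3 subunits overlapped between genotypes, and neither Pfkl nor Pfkp passed. Proteins of the Pfkfb family both make and remove a fructose bisphosphate that activates phosphofructokinase. Pfkfb1, best known from liver and skeletal muscle, maps to the plus strand of chromosome X (150588229 to 150643878) of GRCm38. It reached 9.70, 10.7 and 9.28 CPM in wild-type mice against 16.5, 15.5 and 16.3 CPM in knock-in. All knock-in mice were above all wild-type mice, and Pfkfb1 rose 1.63-fold (0.70 ± 0.07, edgeR adjusted p = 0.000820), ranking 30 by p among all genes tested. Its rise passed in all 6 fits that left out a library.

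Pfkfb2, known as the heart form and a target of insulin and adrenergic kinases, maps to the minus strand of chromosome 1 (130689182 to 130729253). It reached 60.6, 52.4 and 62.6 CPM in wild-type mice against 48.2, 43.4 and 42.8 CPM in knock-in, so that the highest knock-in value lay below the lowest wild-type value. Pfkfb2 fell by 23.5% (log2 fold change -0.39 ± 0.07, edgeR adjusted p = 0.0117), although it did not pass without wild-type replicate 3 or without knock-in replicate 3 (edgeR adjusted p = 0.0522 and 0.0734). Pfkfb3, the inducible form, was at 7.87, 9.18 and 7.28 CPM in wild-type mice against 9.58, 8.38 and 9.25 CPM in knock-in, with overlap, and did not pass (0.16 ± 0.10, edgeR adjusted p = 0.370). Pfkfb4, the last of the family and not among the 31, missed the threshold at 1.75 ± 0.120 and 1.88 ± 0.105 CPM (0.10 ± 0.17, edgeR adjusted p = 0.760). Of the 3 members of the family, Pfkfb2 remained the most abundant in both genotypes at 13.2 and 10.1 CPM per kilobase, ahead of Pfkfb1 at 5.28 and 8.59.

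**Figure D3:**
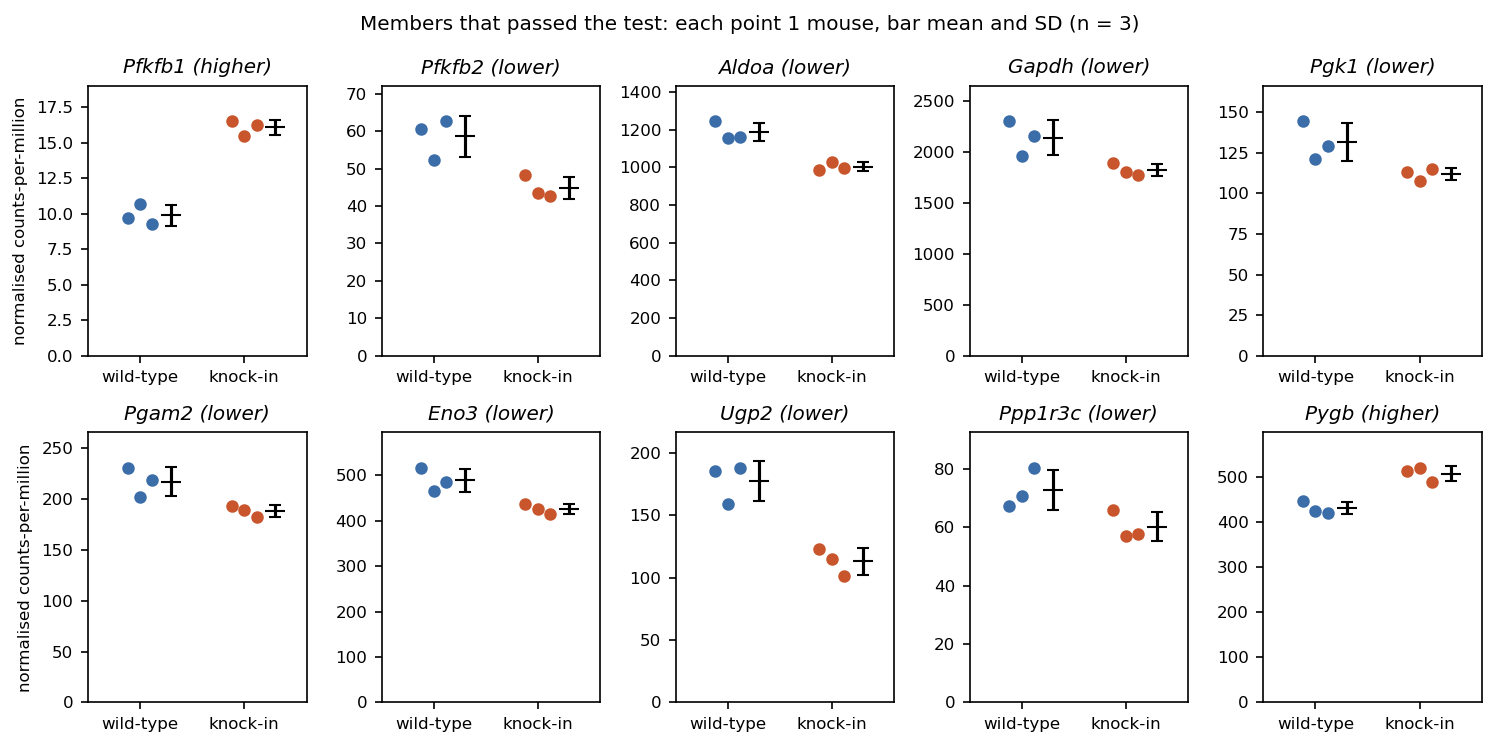
Normalised counts-per-million (y axis, from 0) of the 10 genes that passed the test, 1 panel per gene, in wild-type (blue) and knock-in (orange). Each point is 1 mouse, and the black bar gives the mean and SD of 3. The groups do not overlap in any panel. The separation is widest for Pfkfb1 and Ugp2, and for Aldoa, Gapdh, Pgk1, Pgam2 and Eno3 the means differ by 12.9% to 15.5%.

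Among the 9 genes from aldolase to pyruvate kinase, 5 fell, none rose and 4 did not pass. Over all genes tested, 5.01% were lower and 4.00% higher. Aldoa, which splits fructose bisphosphate, maps to the minus strand of chromosome 7 (126795234 to 126800751). It reached 1244, 1155 and 1162 CPM in wild-type mice against 984, 1029 and 996 CPM in knock-in, with no overlap, and fell by 15.5% (log2 fold change -0.24 ± 0.05, edgeR adjusted p = 0.0118). Gapdh (chromosome 6, 125161715 to 125166467, minus strand) reached 2301, 1959 and 2160 CPM in wild-type mice against 1887, 1800 and 1772 CPM in knock-in. The groups did not overlap, and Gapdh, often used as a reference gene in hearts, fell by 14.99% (-0.23 ± 0.06, edgeR adjusted p = 0.0366). Pgk1, phosphoglycerate kinase, maps to the plus strand of chromosome X (106187100 to 106203699). Its values were 144, 121 and 129 CPM in wild-type mice against 113, 108 and 115 CPM in knock-in, and it fell by 14.9% (-0.23 ± 0.06, edgeR adjusted p = 0.0452).

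The muscle forms of phosphoglycerate mutase and enolase also fell. Pgam2 (chromosome 11, 5801640 to 5803733, minus strand) reached 231, 202 and 219 CPM in wild-type mice against 193, 189 and 182 CPM in knock-in (log2 fold change -0.21 ± 0.05, edgeR adjusted p = 0.0415). Eno3 (chromosome 11, 70657202 to 70662513, plus strand) reached 516, 466 and 484 CPM in wild-type mice against 436, 426 and 414 CPM in knock-in (log2 fold change -0.20 ± 0.05, edgeR adjusted p = 0.0332). In both genes every knock-in mouse was below every wild-type mouse. The widely expressed counterparts did not pass. Eno1 was at 67.3, 63.8 and 62.97 CPM in wild-type mice against 61.4, 64.1 and 69.0 CPM in knock-in, with overlap (0.0043 ± 0.0538). Pgam1 was at 26.3, 28.0 and 25.4 CPM in wild-type mice against 27.3, 19.97 and 21.6 CPM in knock-in, where knock-in replicate 1 stood among the wild-type values. Without that library Pgam1 was called as lower (-0.35, edgeR adjusted p = 0.0110). With all 6 libraries its log2 fold change was -0.21 ± 0.10 (edgeR adjusted p = 0.235), and that of Pgam2 was also -0.21. Tpi1, which interconverts the triose phosphates (280 ± 16.0 and 267 ± 3.96 CPM), and Pkm, pyruvate kinase of muscle (554 ± 23.4 and 524 ± 10.5 CPM), did not pass.

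The 5 decreases were small, and their calls depended on which libraries were fitted. Fewer genes passed over the whole table without knock-in replicate 3 (2.48%) than with all 6 libraries (9.01%). Without knock-in replicate 3 none of the 5 passed (edgeR adjusted p from 0.0589 for Aldoa to 0.171 for Pgam2), and Aldoa passed in each of the other 5 fits that left out a library. Gapdh, Pgk1, Pgam2 and Eno3 also missed the threshold in the fit lacking wild-type replicate 1, with edgeR adjusted p of 0.107, 0.106, 0.113 and 0.0898. Leaving out wild-type replicate 3 gave 0.104, 0.0965, 0.109 and 0.0810 for these genes, and leaving out knock-in replicate 2 gave 0.0996, 0.134, 0.0934 and 0.0850. For Pgk1 the value was 0.0667 when knock-in replicate 1 was left out. With upper-quartile scaling the same 4 genes had edgeR adjusted p of 0.0531, 0.0652, 0.0614 and 0.0521. Their log2 fold changes stayed between -0.32 and -0.16 in all of these fits. Those of Aldoa ran from -0.26 to -0.21 in the fits that left out a library. Aldoa, Gapdh, Tpi1, Pgk1, Pgam1, Eno1 and Ldha have near-identical processed copies in the mouse genome, and the symbol Aldoa stands for 2 gene records in GENCODE M21, so that the division of their reads is uncertain.

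Lactate production and export did not pass the test. Ldhb, the form that favours oxidation of lactate, was at 741, 714 and 725 CPM in wild-type mice against 697, 715 and 730 CPM in knock-in (log2 fold change -0.02 ± 0.04, edgeR adjusted p = 0.768). Ldha, the form that favours lactate formation, was at 217, 218 and 213 CPM in wild-type mice against 203, 206 and 212 CPM in knock-in. The ranges of Ldha did not overlap, but the means differed by -4.23% (-0.06 ± 0.04, edgeR adjusted p = 0.388). Slc16a3, a lactate exporter of glycolytic cells, rested on 11 to 30 counts per library at 0.693 ± 0.188 and 0.407 ± 0.136 CPM, and its 95% interval ran from -1.58 to 0.013.

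In glycogen synthesis, Ugp2 showed the largest decrease of the members that passed. Ugp2 encodes the enzyme that makes UDP-glucose, the glucose donor for glycogen, and maps to the minus strand of chromosome 11 (21321138 to 21371201). It reached 185, 159 and 188 CPM in wild-type mice against 123, 115 and 101 CPM in knock-in. Every knock-in mouse was well below every wild-type mouse, and Ugp2 fell by 36.3% (log2 fold change -0.65 ± 0.08, edgeR adjusted p = 0.00173), ranking 64 by p. It passed in all 6 fits that left out a library, with log2 fold changes from -0.72 to -0.58. Ppp1r3c, a scaffold that brings protein phosphatase to glycogen and favours its synthesis, maps to the minus strand of chromosome 19 (36731731 to 36736653). It reached 67.3, 70.7 and 80.4 CPM in wild-type mice against 65.9, 57.1 and 57.8 CPM in knock-in, where knock-in replicate 1 lay just under the lowest wild-type value. Ppp1r3c fell by 17.2% (-0.27 ± 0.08, edgeR adjusted p = 0.0486). The call was lost, with the direction kept, when wild-type replicate 2 or 3, or knock-in replicate 2 or 3, was left out (log2 fold changes -0.30, -0.20, -0.24 and -0.24, edgeR adjusted p = 0.0833, 0.150, 0.144 and 0.191). With upper-quartile scaling the log2 fold change was -0.26 (edgeR adjusted p = 0.0542).

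The enzymes that build the polymer did not pass. Gys1, muscle glycogen synthase, was at 83.8, 77.9 and 77.5 CPM in wild-type mice against 79.8, 78.6 and 76.4 CPM in knock-in, with an interval from -0.13 to 0.077. Gyg, glycogenin, which primes the polymer, was at 71.3 ± 5.21 and 65.0 ± 0.472 CPM (log2 fold change -0.13 ± 0.06, edgeR adjusted p = 0.160). Gbe1, the branching enzyme, was at 34.9 ± 0.221 and 32.3 ± 0.965 CPM (-0.11 ± 0.05, edgeR adjusted p = 0.189). For Gyg and Gbe1 all knock-in values lay below all wild-type values, without passing the adjustment. Gyg had the smallest adjusted p among the members that did not pass, so that no member lay between 0.05 and 0.1, and the nearest inside was Ppp1r3c.

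In glycogen breakdown the brain form of glycogen phosphorylase rose and the muscle form did not pass. Pygb, which is also expressed in heart, maps to the plus strand of chromosome 2 (150786735 to 150831758). It reached 447, 426 and 421 CPM in wild-type mice against 513, 522 and 491 CPM in knock-in, without overlap, and rose 1.18-fold (log2 fold change 0.24 ± 0.05, edgeR adjusted p = 0.0121). The rise did not pass without wild-type replicate 3 (edgeR adjusted p = 0.0526) or with library size alone, where it was 0.15 (0.125). Pygm was at 340, 322 and 326 CPM in wild-type mice against 308, 309 and 305 CPM in knock-in. The knock-in values were again all lower, with a difference of -6.68% between means, without passing (-0.10 ± 0.04, edgeR adjusted p = 0.170). The phosphorylase kinase genes Phka1, a regulatory subunit (28.7 ± 1.25 and 26.1 ± 1.40 CPM), and Phkg1, the muscle catalytic subunit (15.4 ± 0.993 and 17.1 ± 3.99 CPM), did not pass, and Phkg1 was at 21.6 CPM in knock-in replicate 1 against 14.3 and 15.3 CPM in the others.

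The balance between forms of the same step was read as the log2 ratio of their CPM within each mouse, in which the scaling of libraries nearly cancels. Of 9 pairs, 7 had ranges that did not overlap between genotypes. The share over other pairs of genes was not computed, and pairs that share Pfkm or Pfkfb2 are not independent. Among the 7, Pygb/Pygm, Eno1/Eno3 and the pairs with Pfkfb2 hold genes that had already passed. For each of these 7 pairs the exact two-sided permutation test over 20 arrangements gave p = 0.1 (0.129 after adjustment over the 9 pairs). This is the smallest p the design allows, so no pair could pass. Pygb/Pygm was 0.39, 0.41 and 0.37 in wild-type and 0.74, 0.75 and 0.68 in knock-in. The ratio was thus 1.26-fold higher in knock-in, with a difference of 0.34 ± 0.02 (SE) on the log2 scale. Pfkfb1/Pfkfb2 was -2.64, -2.29 and -2.75 in wild-type and -1.54, -1.48 and -1.39 in knock-in, a 2.12-fold higher ratio. In both pairs the fold changes of the paired genes had opposite signs, although Pygm did not pass.

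Eno1/Eno3 was higher in all 3 knock-in mice, at -2.94, -2.87 and -2.94 in wild-type and -2.83, -2.73 and -2.58 in knock-in. Pfkfb3/Pfkfb2 was 0.55 ± 0.18 higher, and Pfkl/Pfkm and Pfkp/Pfkm were 0.13 ± 0.05 and 0.20 ± 0.08 lower on the log2 scale. Ldha/Ldhb was -1.77, -1.71 and -1.77 in wild-type and -1.78, -1.80 and -1.79 in knock-in, a difference of 0.038 between groups that barely separated. Hk1/Hk2 (difference 0.04 ± 0.04, exact permutation p = 0.5) and Pgam1/Pgam2 (-0.02 ± 0.15, exact permutation p = 1) overlapped.

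**Figure D4:**
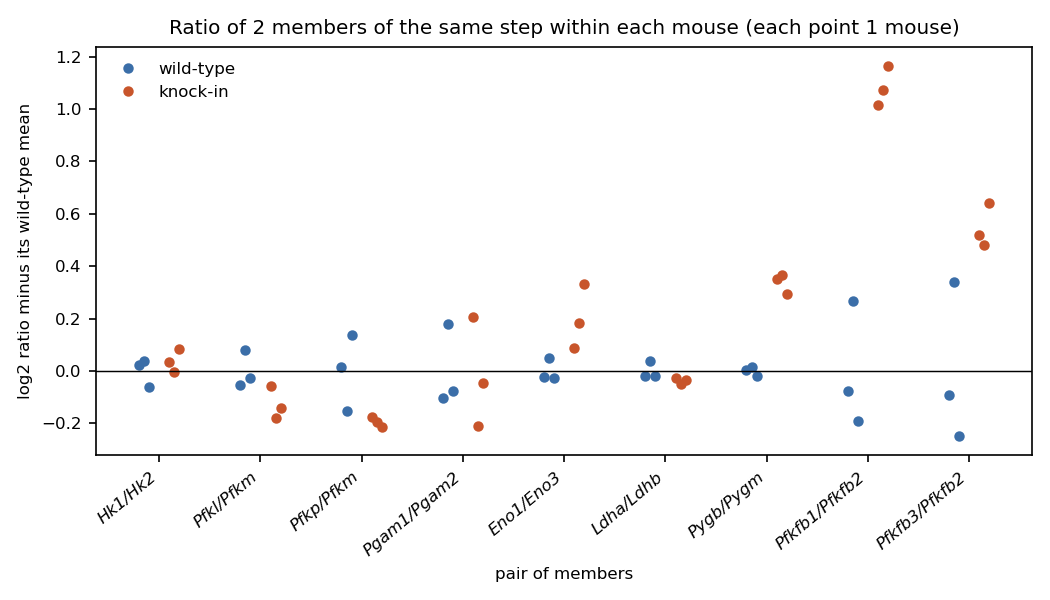
Log2 ratio of the CPM of paired genes of the same step (x axis), minus the wild-type mean of that ratio (y axis). Each point is 1 mouse, blue for wild-type and orange for knock-in, and the line marks 0. Pfkfb1/Pfkfb2 and Pygb/Pygm are set apart most clearly, while Hk1/Hk2 and Pgam1/Pgam2 overlap.

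A further 80 genes of the same pathways were listed beside the 31. The symbols of 79 were in the count table, 68 could be tested and 5 had no count in any library. Of these 68, 2 rose, 6 fell and 60 did not pass, and their median log2 fold change was -0.017. These 8 of 68 genes stand against 9.01% of all genes, a share near the background. In glucose uptake none of 9 passed, and the smallest p belonged to Arrdc4, an arrestin-like partner of glucose transporters (8.02 ± 0.838 and 6.01 ± 0.893 CPM, edgeR adjusted p = 0.0668). Slc2a4, the insulin-responsive transporter, was at 190 CPM in wild-type mice against 182 CPM in knock-in (edgeR adjusted p = 0.603).

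Among 9 other enzymes and regulators of glycolysis, 1 rose, against 4.00% of all genes tested. Fbp2, the muscle fructose bisphosphatase, which opposes phosphofructokinase, rose to 18.3 ± 0.0970 CPM in knock-in, against 12.8 ± 1.502 CPM in wild-type (0.51 ± 0.08, edgeR adjusted p = 0.00539). It passed in all 6 fits that left out a library.

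In lactate and pyruvate transport 3 of 7 fell, against 5.01% of all genes tested. Slc16a7, a monocarboxylate transporter of high affinity, fell to 3.65 ± 0.789 CPM in knock-in, against 6.46 ± 0.359 CPM in wild-type (log2 fold change -0.81 ± 0.15, edgeR adjusted p = 0.0107) and passed in all 6 fits that left out a library. Bsg, the chaperone that brings such transporters to the membrane, fell to 448 ± 24.9 CPM in knock-in, against 533 ± 32.7 CPM in wild-type (-0.25 ± 0.06, edgeR adjusted p = 0.0256), and Mpc2, a subunit of the mitochondrial pyruvate carrier, fell to 81.8 ± 0.192 CPM in knock-in, against 92.7 ± 3.68 CPM in wild-type (-0.18 ± 0.04, edgeR adjusted p = 0.0314). Bsg missed the threshold when wild-type replicate 1 or 3, or knock-in replicate 2 or 3, was left out (edgeR adjusted p = 0.0714, 0.0526, 0.0522 and 0.116). Mpc2 passed in 1 of those 6 fits, the one without wild-type replicate 3, and had an adjusted p of 0.0587 to 0.127 in the others, and it also lost its call with upper-quartile scaling (edgeR adjusted p = 0.0519). Slc16a1, the main lactate carrier of heart muscle, was at 121 and 132 CPM (0.13 ± 0.06, edgeR adjusted p = 0.222).

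Of 28 other glycogen genes 1 rose, 1 fell and 26 did not pass, against 4.00% higher and 5.01% lower over all genes tested. Stbd1, a starch-binding protein that tethers glycogen to membranes, fell to 2.71 ± 0.822 CPM in knock-in, against 5.08 ± 1.43 CPM in wild-type (log2 fold change -0.92 ± 0.24, edgeR adjusted p = 0.0418), and Prkab1, a glycogen-binding subunit of AMP-activated kinase, rose to 21.9 ± 1.57 CPM in knock-in, against 17.8 ± 0.468 CPM in wild-type (0.29 ± 0.07, edgeR adjusted p = 0.0252). Stbd1 passed in 2 of the 6 fits that left out a library (adjusted p up to 0.144, without knock-in replicate 3, and 0.132, 0.106 and 0.105 without wild-type replicates 2 and 3 and knock-in replicate 2), and Prkab1 in 1, the fit without knock-in replicate 1, with an adjusted p of 0.0669 to 0.0950 in the others. Stbd1 also lost its call with robust dispersions (edgeR adjusted p = 0.0780), and Prkab1 with library size alone (0.120). Of 15 genes of the pentose phosphate and hexosamine branches, Gfpt2, which makes glucosamine phosphate, fell to 5.81 ± 0.978 CPM in knock-in, against 14.1 ± 2.46 CPM in wild-type (-1.29 ± 0.14, edgeR adjusted p = 0.00107) and passed in all 6 of those fits, and 14 did not pass.

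Markers of other cells were read beside these results. Macrophage markers moved with the genotype, 5 of 8 (Lyz2, C1qb, Csf1r, Adgre1 and C1qa) being lower and none higher, with a summed level of 151 to 153 CPM in wild-type and 109 to 126 CPM in knock-in. Of 8 fibroblast markers 1 was lower, of 8 endothelial markers 2 were lower, and of 8 smooth muscle and pericyte markers 1 was higher. Beside the counts for each of these marker lists, 5.01% of all genes tested were lower and 4.00% higher. Erythroid transcripts varied from 585 to 2226 CPM in wild-type and from 602 to 5301 CPM in knock-in, and none of 6 tested passed. Nerve and Schwann markers summed to 5.84 to 8.76 CPM in wild-type and 8.09 to 9.54 CPM in knock-in, with Dbh higher. None of 5 atrial muscle markers tested passed, but they varied between mice. The atrial marker Myl7 was at 6.74, 27.8 and 1.17 CPM in wild-type mice against 28.1, 15.1 and 17.3 CPM in knock-in. Neither of the 2 adipocyte markers tested passed. The part of these cells in the results for glycolysis and glycogen genes was not tested. Ckm, a muscle creatine kinase, was the 1 of 10 cardiomyocyte markers that passed, and it was lower (log2 fold change -0.29, edgeR adjusted p = 0.0103).

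**Figure D5:**
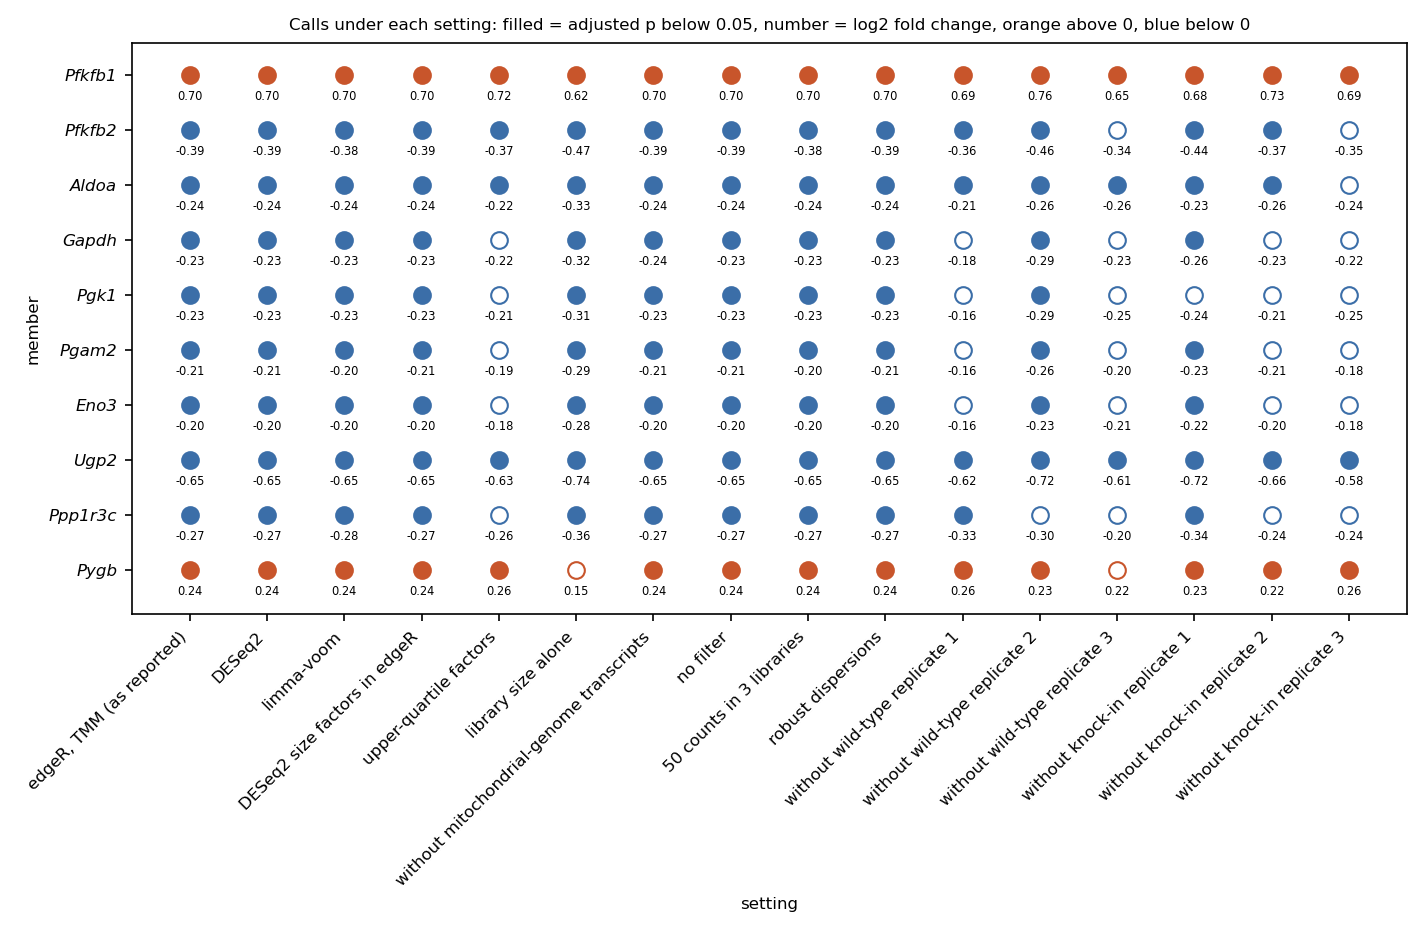
Calls for the 10 genes that passed (y axis) under each setting of the test (x axis). Filled circles passed at an adjusted p below 0.05 and open circles did not, orange for a log2 fold change above 0 and blue for below 0, with the value printed under each circle. Pfkfb1 and Ugp2 are filled throughout, and without knock-in replicate 3 only Pfkfb1, Ugp2 and Pygb are filled.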

How the data were processed

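Total RNA of left ventricular myocardium from 6 mice was sequenced with a stranded Illumina kit, per the labels' protocols. Programs and build, per the submitters' processing notes, are bcl2fastq 2.19, kallisto 0.44.0 (which estimates transcript abundance) and GRCm38. The authors deposited a table of whole-number estimated counts per gene symbol. The annotation, the summing to symbols, any rounding and the use of strand: not given in the sources used here. The labels give 1 library per mouse code and no batch, so p-values measure only the spread between these samples. Pairs within a genotype differed far beyond sampling noise (chi-square per degree of freedom 7.98 or more) and all were kept.

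Counts, already whole, were tested with edgeR 4.0.16 in R 4.3.3 (filterByExpr on genotype, TMM, glmQLFit and glmQLFTest, two-sided, no covariate), which left 13485 genes. Called means a Benjamini-Hochberg adjusted p below 0.05 over all of them. CPM are TMM-scaled. SE is the log2 fold change divided by the root of F. For ratios, log2-CPM had a prior count of 2. Lengths and coordinates are from GENCODE M21. Alternatives were DESeq2 1.42.0, limma-voom (limma 3.58.1), other scalings and filters, robust dispersions and leaving out each library. Members and lists were chosen with earlier results of these data known. Every member is described, with values per mouse for those that passed, the leading gene of each step and the paired forms, and of the other lists up to 4 passing genes by p. Slc2a4, Slc16a1, Pfkfb4, Ckm, Dbh, the Y-linked genes, the macrophage markers and the genes of the closing observations were named after their values were seen. The test was also tried on simulated data, in which 200 genes drawn at random from those tested were changed. Of 50 genes changed 1.2-fold it recovered 12%, and of 50 changed 1.5-fold 66%. Of its calls, 7.58% were false. For 1 gene of the other pathway lists, the result is not reported here.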

Additional observations from a re-analysis of the deposited data

How the results depend on the processing

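Of 278 refits of the members' fold changes under other tools, scalings, filters and dispersions, 268 kept direction and side of the threshold, 6 lost the call and 4 changed sign. For the members that had passed, 84 of 90 such refits kept the call and 6 lost it. Of 72 such refits of the other pathway genes that passed, 69 kept both and 3 lost the call. Upper-quartile factors left 3 members called as lower. Library size alone left 1 member called as higher, gave 227 higher and 1177 lower genes over the table (16.2% of calls higher against 44.4%), and 1 higher and 10 lower genes of the other pathway lists, while no filter gave 4 higher genes of those lists. The sign changes were all under library size alone, in Slc2a1 (-0.045), Hk1 (-0.063), Pfkm (-0.015) and Eno1 (-0.077), none of them called. Leaving out each library in turn gave 1 to 2 members called as higher, 1 to 8 as lower, 136 to 601 and 202 to 777 genes over the table as higher and lower, and 1 to 4 and 3 to 5 genes of the other pathway lists. In these fits the log2 fold change ranged across 0 for Slc2a1 (-0.12 to 0.12), Hk1 (-0.019 to 0.057), Hk2 (-0.043 to 0.0052), Eno1 (-0.043 to 0.042), Gys1 (-0.049 to 0.0092) and Phkg1 (-0.055 to 0.26), as did the difference in Pgam1/Pgam2 (-0.13 to 0.080). The cause was not tested. No called member changed sign in any fit. Of the 60 refits of called members that left out a library, 35 kept the call and 25 lost it. The refits of the other pathway genes were chosen after seeing the data. No paired analysis was possible because the labels give no number shared between the genotypes. With 3 mice per genotype, members that did not pass may still differ within the intervals given for them.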

Other observations

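Bpgm, which makes bisphosphoglycerate and is abundant in red cells, was at 16.0 CPM in wild-type mice against 28.3 CPM in knock-in with overlapping ranges (log2 fold change 0.84 ± 0.35, edgeR adjusted p = 0.173). All 6 erythroid markers tested also had a log2 fold change above 0, with overlapping ranges, and the part of blood in the level of Bpgm was not tested. In the hexosamine branch, Uap1, which makes the activated sugar, was at 20.4 ± 1.154 and 17.99 ± 0.405 CPM (-0.18 ± 0.06, edgeR adjusted p = 0.0964), and Ogt, which attaches it to proteins, was at 80.0 and 89.0 CPM (0.15 ± 0.05, edgeR adjusted p = 0.111), neither passing beside the fall of Gfpt2. Among the subunits of AMP-activated kinase, Prkag2, which binds adenine nucleotides, was at 13.4, 14.9 and 15.2 CPM in wild-type mice against 16.5, 17.3 and 17.6 CPM in knock-in, without overlap and without passing (0.24 ± 0.07, edgeR adjusted p = 0.0571).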
